A study of Mus musculus with 7 samples.

Results

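The regions described here are stretches of mouse cortical chromatin that were open selectively in parvalbumin (PV) interneurons. They were chosen by their own ATAC-Seq reads from 323369 reference regions, which the study merged from peaks of many cortical experiments, other cell types included. In each of 6 libraries, reads were scaled to 1000000 reads on the reference regions (counts per 1000000, CPM). A region was kept where the lower of both PV values was at least 5 CPM and at least 2 times the highest of the 4 values of somatostatin (SST) and vasoactive intestinal peptide (VIP) interneurons. This left 1539 regions, 0.476% of the reference set and 6.01% of the 25623 regions at or above 5 CPM in both PV libraries. The mirrored rule left 826 SST-selective and 4738 VIP-selective regions, and 24084 regions were open in PV without being selective. The PV, SST and VIP levels that chose the regions are given as description, without a test.

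ATAC-Seq cuts nucleosome-free DNA with a transposase, so that reads accumulate at promoters and at distal gene regulatory elements. Nuclei came from whole cortex of adult, uninjected F1 mice (6 to 12 weeks) that carried Pv-Cre, Sst-IRES-Cre or Vip-IRES-Cre together with the Cre-dependent nuclear envelope tag SUN1-2xsfGFP-6xMYC. The tag was pulled down with antibodies to GFP (INTACT), and 2 libraries were made per cell type, each from 1 animal. A tagged nucleus is therefore one in which the Cre driver was active at any stage. The labels give the animals as male, while the study's methods name both sexes. Transcripts came from 1 further sample, nuclei of primary visual cortex (V1) of C57BL/6J mice of 6 to 10 weeks injected with an AAV9 library of regulatory elements, sequenced as 10 libraries in 2 sets of 5. The study's methods give 2 animals with 5 libraries from each.

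PV interneurons are inhibitory neurons that arise, with SST interneurons, in the medial ganglionic eminence, whereas VIP interneurons arise in the caudal one. Most are fast-spiking basket and chandelier cells. They are known for Kv3 potassium channels, synchronous transmitter release, a high mitochondrial load and a sheath of extracellular matrix, the perineuronal net. Selectively open distal regions are candidate enhancers, and their sequence holds the motifs that transcription factors can recognise.

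The 6 libraries held from 1801883 to 2256073 reads on the reference regions, so that 5 CPM was 10 to 12 reads. A count of 10 has an exact Poisson 95% interval from 4.80 to 18.4, which covers counting error and nothing else. The promoters used as a check followed the labels. That of Sst had 17.3 and 14.2 CPM in the SST libraries and at most 1.99 in the other 4, and that of Vip had 12.9 and 16.5 in VIP and at most 2.62 elsewhere. That of Pvalb differed less, with 21.9 and 20.0 in PV and 10.9 to 15.2 elsewhere. The Slc17a7 promoter, a marker of excitatory neurons, had at most 1.66 in any library. The promoters of 12 excitatory neuron genes summed to 121 to 159 over the libraries, with 136 and 137 in PV, and those of 12 glial and vascular genes to 63.6 to 87.2, with 63.6 and 72.7 in PV. None of these genes had promoters at 0 in PV, and the part of other cell types in the members was not tested. Across 15599 promoter regions with at least 5 CPM in some library, SST replicate 1 lay closer to PV (Pearson's r of log2 values plus 1 of 0.932 and 0.929) than to its own replicate (0.899), and SST replicate 2 closer to VIP (0.902 and 0.908). Across 40552 distal regions the SST replicates were closest to each other (0.760, against 0.620 or less with PV). These correlations are over regions that share libraries and have no test. The part of this split between the SST libraries in the results below was not tested. The number of regions, their promoter and phyloP shares and the edgeR calls were also computed without SST replicate 1, while the other positions, motifs, nearby genes and transcripts were not.

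Conserved members were those with a mean phyloP, a score of slower-than-neutral change across placental mammals, above 0.5. Among those overlapping no exon and more than 1 kb from a protein-coding start, the 4 with the highest lower PV value come first. They are the strongest conserved candidates away from promoters. Each is 300 bases around the middle of the region on the plus strand of GRCm38 (mm10), read 5′ to 3′, with every match to 1 of 20 searched motifs in capitals.
Nearest to Gm5148, chr3:37896970-37897269: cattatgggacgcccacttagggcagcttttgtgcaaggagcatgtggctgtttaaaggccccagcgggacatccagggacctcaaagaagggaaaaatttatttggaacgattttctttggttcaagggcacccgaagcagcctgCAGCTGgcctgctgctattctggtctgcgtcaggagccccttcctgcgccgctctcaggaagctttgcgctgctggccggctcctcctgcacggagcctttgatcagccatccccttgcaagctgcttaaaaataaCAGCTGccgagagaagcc
Nearest to Tlr4, chr4:66870020-66870319: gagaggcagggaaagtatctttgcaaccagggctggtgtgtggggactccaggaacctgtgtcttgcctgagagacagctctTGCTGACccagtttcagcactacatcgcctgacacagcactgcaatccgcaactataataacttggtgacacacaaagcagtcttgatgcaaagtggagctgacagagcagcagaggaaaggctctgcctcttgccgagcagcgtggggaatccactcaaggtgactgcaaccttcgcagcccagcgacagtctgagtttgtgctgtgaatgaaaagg
Nearest to Nr4a2, chr2:56454658-56454957: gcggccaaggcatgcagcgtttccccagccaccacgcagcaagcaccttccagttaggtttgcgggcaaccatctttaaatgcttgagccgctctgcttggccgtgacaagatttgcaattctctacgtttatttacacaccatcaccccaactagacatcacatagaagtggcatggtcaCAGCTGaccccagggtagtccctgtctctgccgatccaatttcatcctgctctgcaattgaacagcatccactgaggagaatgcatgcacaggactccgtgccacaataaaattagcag
Nearest to Pdgfc, chr3:81377545-81377844: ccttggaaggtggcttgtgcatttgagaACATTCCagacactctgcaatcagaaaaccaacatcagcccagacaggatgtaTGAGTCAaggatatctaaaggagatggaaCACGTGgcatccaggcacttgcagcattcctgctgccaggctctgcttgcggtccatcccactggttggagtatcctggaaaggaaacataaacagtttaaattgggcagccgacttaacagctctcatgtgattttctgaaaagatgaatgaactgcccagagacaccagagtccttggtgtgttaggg
The stretches nearest to Gm5148 and Nr4a2 held the E-box with the letters CAGCTG, that nearest to Tlr4 a MAF half-site (TGCTGAC), and that nearest to Pdgfc a TEAD, an AP-1 and another E-box match (CACGTG).

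The next set was chosen after the motif shares were seen, to show nuclear receptor motifs that were more frequent in members than in SST-selective, VIP-selective or all regions. It was drawn from intronic and intergenic members with no exon in the stretch shown. It holds the 4 with an ESRR match (TCAAGGTCA) and the 3 with a ROR match (TAGGTCA) that had the highest lower PV value. The member in an intron of Pvalb was added. On the opposite strand the ESRR motif reads TGACCTTGA, and the ROR motif there begins with the same letters and reads TGACCTA.
Nearest to Tmc1, chr19:21048506-21048805, ESRR: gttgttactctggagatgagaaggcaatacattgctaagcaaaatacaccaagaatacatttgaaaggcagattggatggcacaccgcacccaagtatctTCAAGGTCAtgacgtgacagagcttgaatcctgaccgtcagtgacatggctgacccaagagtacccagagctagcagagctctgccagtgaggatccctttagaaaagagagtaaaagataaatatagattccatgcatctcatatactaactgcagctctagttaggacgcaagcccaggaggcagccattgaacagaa
Intron of Arhgap44, chr11:65135350-65135649, ESRR: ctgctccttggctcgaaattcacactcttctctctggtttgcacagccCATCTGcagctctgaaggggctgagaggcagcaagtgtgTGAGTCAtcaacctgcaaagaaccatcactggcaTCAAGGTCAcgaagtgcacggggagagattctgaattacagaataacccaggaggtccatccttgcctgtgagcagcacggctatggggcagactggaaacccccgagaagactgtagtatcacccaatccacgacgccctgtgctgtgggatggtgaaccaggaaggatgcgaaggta
Intron of Nrip1, chr16:76321606-76321905, ESRR: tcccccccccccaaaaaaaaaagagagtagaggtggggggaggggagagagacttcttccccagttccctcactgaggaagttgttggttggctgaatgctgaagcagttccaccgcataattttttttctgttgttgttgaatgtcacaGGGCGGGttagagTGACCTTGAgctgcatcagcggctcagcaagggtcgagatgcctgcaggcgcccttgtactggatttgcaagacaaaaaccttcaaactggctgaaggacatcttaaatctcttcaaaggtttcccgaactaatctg
Intron of Elmo1, chr13:20537405-20537704, ESRR: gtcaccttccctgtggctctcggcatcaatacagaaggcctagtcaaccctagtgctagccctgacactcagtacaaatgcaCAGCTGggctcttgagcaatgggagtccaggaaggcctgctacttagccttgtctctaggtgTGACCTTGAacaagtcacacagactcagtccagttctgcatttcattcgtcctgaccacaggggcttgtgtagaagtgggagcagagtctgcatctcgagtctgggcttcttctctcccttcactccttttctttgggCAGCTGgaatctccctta
Nearest to Diras2, chr13:52501732-52502031, ROR: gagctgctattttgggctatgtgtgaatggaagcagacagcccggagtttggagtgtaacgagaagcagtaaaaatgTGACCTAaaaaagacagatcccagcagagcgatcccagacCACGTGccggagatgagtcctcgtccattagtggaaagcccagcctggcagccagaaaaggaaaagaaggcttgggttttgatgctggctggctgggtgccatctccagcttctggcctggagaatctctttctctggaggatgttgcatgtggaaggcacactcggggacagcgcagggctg
Intron of Rasgrp1, chr2:117313743-117314042, ROR: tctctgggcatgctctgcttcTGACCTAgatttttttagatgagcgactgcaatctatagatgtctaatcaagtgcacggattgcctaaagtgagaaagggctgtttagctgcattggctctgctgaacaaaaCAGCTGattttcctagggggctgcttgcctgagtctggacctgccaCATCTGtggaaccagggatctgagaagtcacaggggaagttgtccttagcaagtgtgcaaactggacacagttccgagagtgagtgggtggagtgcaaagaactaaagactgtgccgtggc
Intron of Unc5c, chr3:141598963-141599262, ROR: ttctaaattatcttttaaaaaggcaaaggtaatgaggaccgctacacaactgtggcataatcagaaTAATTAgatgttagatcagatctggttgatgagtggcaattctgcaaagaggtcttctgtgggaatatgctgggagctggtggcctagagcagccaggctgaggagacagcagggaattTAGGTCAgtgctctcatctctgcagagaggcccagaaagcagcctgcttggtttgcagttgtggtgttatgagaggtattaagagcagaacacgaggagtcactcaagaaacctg
Intron of Pvalb, chr15:78195512-78195811: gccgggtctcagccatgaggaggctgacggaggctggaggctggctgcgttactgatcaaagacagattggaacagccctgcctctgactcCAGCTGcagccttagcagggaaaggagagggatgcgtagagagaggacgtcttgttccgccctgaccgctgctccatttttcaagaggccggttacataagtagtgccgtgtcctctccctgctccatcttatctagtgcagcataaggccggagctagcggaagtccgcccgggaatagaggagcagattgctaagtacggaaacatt
The Nrip1 region was among the conserved ones (mean phyloP 1.79), and its reads were 32 and 25 in PV, 10 and 8 in SST, and 5 and 8 in VIP. The Tmc1 region had 53 and 46 reads in PV against 12, 8, 7 and 16 in SST and VIP. The Pvalb region held a CAGCTG E-box and no ESRR or ROR match in this window.

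Among the 1539 members, the median was 9.15 and 8.88 CPM in the PV libraries, 2.10 and 2.22 in SST and 1.49 and 1.34 in VIP. The median read count was 18 and 16 in PV, 4 and 5 in SST and 3 in both VIP libraries. Neither PV replicate was higher throughout, as replicate 1 was higher in 811 members and replicate 2 in 728. The lower PV value had a median of 8.14 and a maximum of 157, and it reached 20 or more in 99 members. It was a median of 2.62 times the highest SST or VIP value (quartiles 2.28 and 3.39), and 533 members reached 3 times, not counting 1 member without SST and VIP reads. Members thus took 1.8% and 1.71% of the reads of the PV libraries, from 0.428% to 0.455% in SST and from 0.269% to 0.275% in VIP.

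**Figure D1:**
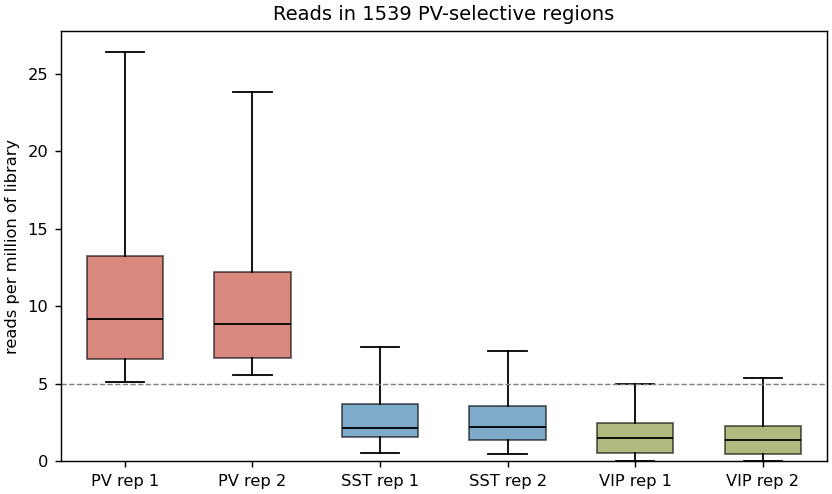
CPM (reads scaled to 1000000) in the 1539 PV-selective regions, by library. Boxes give the quartiles and the median, whiskers the 5th and 95th percentiles, and the dashed line the floor of 5 that the rule set for PV. The PV medians of 9.15 and 8.88 sit above the SST medians of 2.10 and 2.22 and the VIP medians of 1.49 and 1.34, as the rule requires of each region.

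The highest member was the promoter region of Fbxo30, a ubiquitin ligase subunit, on chromosome 10 (11280569 to 11281552), with 167 and 157 CPM in PV, 74.5 and 27.0 in SST, and 39.7 and 43.4 in VIP. Its SST replicates lay apart, as at many promoters, and the ratio of 2.11 was set by SST replicate 1. Next came the promoter of Rab32, a small GTPase, with 81.9 and 88.2 in PV and 23.3 to 34.0 in the other libraries. Of the 8 highest, 6 lay away from promoters, and the intronic region of Elk3, an ETS transcription factor gene, on chromosome 10 (93273402 to 93274064) had 55.9 and 52.2 in PV against 4.92 to 9.75 elsewhere, with peaks called in the PV libraries alone.

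The highest ratio was 19.4. It belonged to an intergenic region on chromosome 5 (111880050 to 111880828), 146515 bp from Gm26897, with 40 reads in each PV library, 2 and 2 in SST, and 2 and 0 in VIP. The region nearest to Gm34302 had 32 and 31 reads in PV and at most 2 elsewhere. That nearest to Fam209 had 44 and 34 reads against at most 2, and that of Bean1 17 and 14 against at most 1. The fourth of the 5 highest ratios, 15.9, was the promoter of Mypn, which encodes the sarcomere protein myopalladin, with 18 and 15 reads in PV, 1 and 0 in SST and none in VIP. None of these 5 regions had a peak in an SST or VIP library. A single member had no read in any of the 4 SST and VIP libraries.

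Many members lay close to the limits of the rule. The ratio was under 2.2 in 298 members and between 1.8 and 2 in 382 regions just outside, and 283 members had a lower PV value under 6. Just inside the ratio, the region nearest to Nrp2 had 8.88 as the lower PV and 4.43 as the highest other value, and just outside it the region nearest to Rassf6 had 9.43 and 4.72. Just inside the floor, the regions nearest to Il1r2, Rai2 and Ets1 had 10 reads in PV replicate 1, and just outside it those nearest to Myh13, Ints6 and Zfp957 had 9 reads in PV replicate 2. Next to the floor, members and other regions thus differed by 1 read. With the rule applied without PV replicate 1, without PV replicate 2 or without SST replicate 1, 3291, 3917 and 2944 regions passed, of which the 1539 members were 46.8%, 39.3% and 52.3%.

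Peaks called by the authors in each library, a readout from the same reads, were found in both PV replicates at 1372 members (89.1%), in 1 of them at 114 and in neither at 53. Peaks in an SST library were found at 773 members (50.2%) and in a VIP library at 484 (31.4%). In 511 members (33.2%) both PV libraries and neither SST nor VIP had a peak. An SST or VIP library thus had a peak at most members, and 641 had none. Of all 323369 reference regions, 47423 and 44170 had a peak in the PV libraries. In the SST libraries these were 45549 and 49979, and in the VIP libraries 45448 and 51956. Joint counts over libraries were not made for all regions, so nothing is read from the shares of members.

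Because the rule used every library, the rule was also applied to replicates numbered 1 alone and read out in those numbered 2, and the reverse. On replicates 1 it chose 5535 regions. In replicate 2, PV was above SST and VIP at 4579 of them (82.7%) and at least 2 times both at 2663 (48.1%). The corresponding shares were 40.0% and 9.38% of the 27104 other regions with at least 5 CPM in PV replicate 1. In the reverse direction 6147 regions were chosen, with PV highest at 74.5% and at least 2 times both at 37.4%, against 33.2% and 5.21% of 24462 others. The median ratio fell from 2.96 in the choosing replicates to 1.88 in the others, and from 2.86 to 1.54 in the reverse. Applied to the other types in both directions, the same procedure left SST highest at 70.3% and 71.6% and VIP highest at 90.7% and 93.4%. Replicate numbers were not shared batches as far as the labels say, and no test was made over regions. All 1539 members were among the PV regions chosen in both directions and met both readouts by the rule itself. The other regions held no member, so part of the difference between the shares was fixed by the rule. These shares are therefore no replication of the members.

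SST and VIP levels in members are given as a description, because the rule capped both with the same limit and used the same reads. Mean SST signal exceeded mean VIP signal at 1210 members (78.6%), compared with 58.3% of the 24084 non-selective regions open in PV. Promoters made up 52.6% of those regions and 4.48% of members, and distal regions were not compared apart. The highest of the 4 other libraries was an SST one at 1163 members and a VIP one at 375. The SST libraries lay above both VIP libraries, without overlap, at 746 members, and the VIP libraries above both SST ones at 120. The same counts were not made over all regions, so nothing is read from them. In edgeR's quasi-likelihood fit with Benjamini-Hochberg adjustment over 40338 regions, 222 members (14.4%) were called higher in SST and 7 (0.455%) higher in VIP at a false discovery rate of 5%, beside 17.4% and 18.8% of these filtered regions. Members passed the filter on low counts through their PV reads, at least 10 in each library, and the calls are no test of the members. The log2 fold change of SST over VIP was positive in 1236 members, with a median of 0.81 against 0.05 over the filtered regions. It was 0.77 with the 70 members without VIP reads and the 4 without SST reads set to the bound that 3 reads over the group allow, and with 13 of these left out because neither group exceeded it. Without VIP replicate 1 or 2 the members higher in SST numbered 111 and 67 and those higher in VIP 2 and 3, with the lone VIP library assumed to vary like the other groups. These fits called 5060 and 3938 of all filtered regions higher in SST and 6198 and 4662 higher in VIP, of 54063 and 53382. DESeq2 called 50 and 2 members, beside 3066 and 4390 of 40338 regions.

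**Figure D2:**
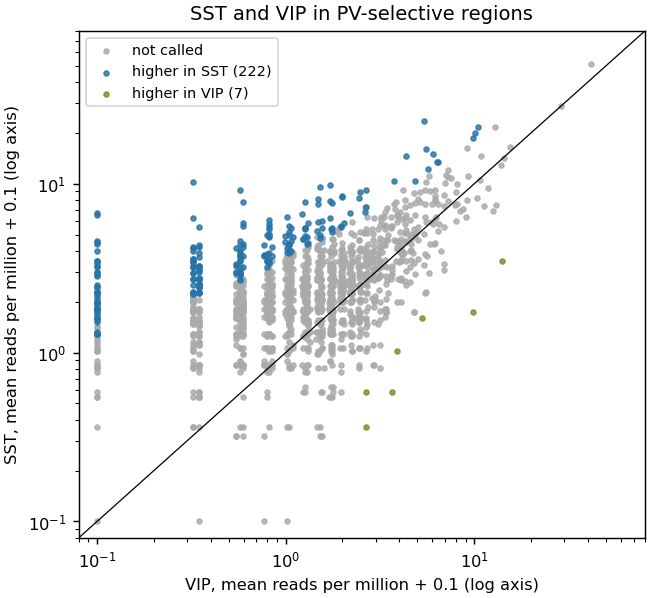
Mean CPM of both SST libraries (vertical) against both VIP libraries (horizontal) in the 1539 members, each plus 0.1, on log axes. Points are regions, the line marks equal values, and colours mark the edgeR calls. Most points, 1210 of 1539, lie above the line. Called higher in SST were 222 (14.4%) and in VIP 7 (0.455%), beside 17.4% and 18.8% of the 40338 filtered regions.

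At the conserved region nearest to Pdgfc (shown above), which encodes a growth factor of the PDGF family, PV had 90 and 55 reads, SST 11 and 17 and VIP 0 and 0. SST was at least 9.54-fold higher than VIP, taking 3 reads over both VIP libraries as the floor. The region nearest to Gm5148 had 45 and 53 reads in SST and 8 and 15 in VIP, a log2 fold change of 2.13 ± 0.35 (SE of the edgeR fit, n = 2 per type). In an intron of Syt2, 10 and 13 reads in SST stood against 2 and 0 in VIP. The opposite order was found nearest to Gpr158, an orphan receptor gene, where SST had 2 and 5 reads and VIP 22 and 19 (log2 fold change -2.48 ± 0.53). It was likewise found at the member nearest to Myc on chromosome 15 (62104363 to 62105220), with 1 and 1 reads in SST and 8 and 7 in VIP. The Gpr158 and Myc regions were singled out after their values were seen. In edgeR's test of the contrast that the rule itself used, PV against the mean of SST and VIP, 1538 of the 1539 members were called higher, beside 17.2% of the 40338 regions that passed the filter, and nothing is read from this count.

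Members lay mostly away from promoters. Within 1 kb of a protein-coding start were 69 members (4.48%), compared with 3.51% of SST-selective, 4.37% of VIP-selective and 6.80% of all regions, and with 52.6% of the non-selective regions open in PV. This share depended on the thresholds and on 1 library. It was 3.43% with a floor of 3 CPM and 3.18% with 3 times. With a floor of 10 CPM it was 7.26% and with 1.5 times 7.97%, both above the 6.80% of all regions. Without SST replicate 1, 17.9% of the regions passing the rule were promoters, and 457 of the 1405 added regions lay within 1 kb of a start. At those 457, the median was 32.0 and 30.0 CPM in PV and 26.8 in SST replicate 1, but 10.6 in SST replicate 2 and 8.44 and 8.49 in VIP. Leaving out any of the other 5 libraries kept the share between 4.36% and 5.23%.

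Introns held 688 members (44.7%), intergenic sequence 611 (39.7%) and exons 171 (11.1%). Exons and introns were those of protein-coding genes, so regions called intergenic can lie in noncoding genes. The share in introns was 38.1% and 39.4% in SST-selective and VIP-selective regions and 35.4% in all regions. The median distance from a member to the nearest protein-coding start was 43838 bp (quartiles 16999 and 110700), against 49194 bp over all regions and 689 bp over the non-selective regions open in PV. To starts of every annotated gene the order turned, with 18463 bp for members and 17955 bp over all regions. Within 10 kb of a start were 245 members, while 424 were beyond 100 kb. Another member lay within 50 kb at 234 members (15.2%), and for the less numerous SST-selective and more numerous VIP-selective regions this share was 8.11% and 39.8%. The X chromosome held 13 members (0.845%) and 3.07% of all regions, and SST-selective and VIP-selective regions were likewise below that share there, at 0.121% and 0.865%, with from 1.64% to 1.79% of reads on X in every library.

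**Figure D3:**
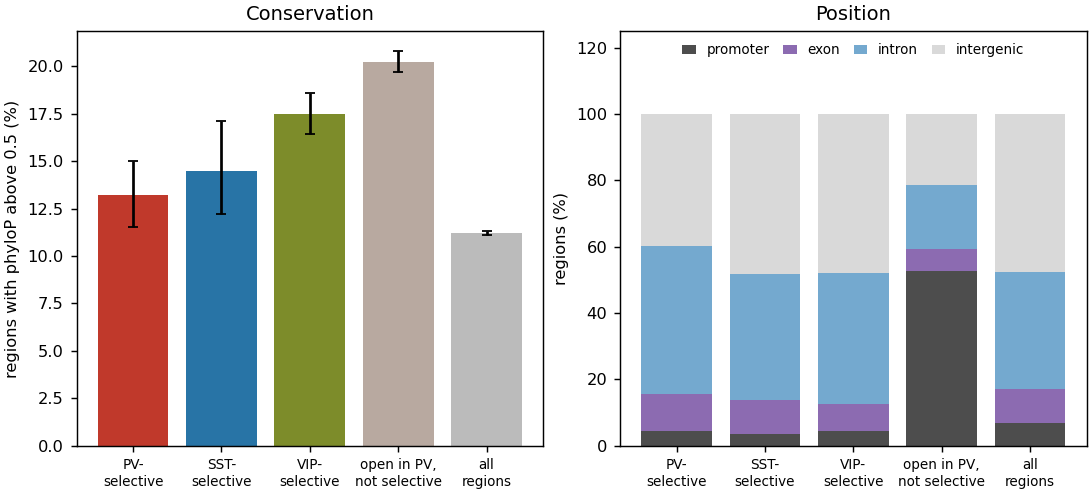
Left, percent of regions with mean phyloP above 0.5 in 5 sets of regions, with exact binomial 95% intervals. Right, percent of each set within 1 kb of a protein-coding start (promoter), in exons or introns of protein-coding genes, and outside these genes. Members have 13.2% conserved regions and 4.48% promoters, and the non-selective regions open in PV 20.2% and 52.6%.

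Conservation of members was modest. Mean phyloP was above 0.5 in 203 members, or 13.2% (exact binomial 95% interval 11.5 to 15.0), compared with 11.2% of all regions, 14.5% (12.2 to 17.1) of SST-selective and 17.5% (16.4 to 18.6) of VIP-selective regions. The non-selective regions open in PV had 20.2%. Restricted to regions more than 1 kb from a start, the shares were 12.6% for members, 14.4% and 17.1% for SST-selective and VIP-selective regions, and 16.5% for the non-selective open ones, against 10.3% of all distal regions. The difference between the sets was not tested. Median phyloP was 0.125 in members and 0.0642 over all regions. The intervals cover counting only, as neighbouring regions are not independent.

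Conserved members ranged from a promoter to regions far from any start. The region 658264 bp from Nr4a2, which encodes an orphan nuclear receptor, had a mean phyloP of 1.63 and 93 and 57 reads in PV, 25 and 20 in SST, and 17 and 22 in VIP. That 628082 bp from Ythdf3, an RNA-binding protein gene, scored 0.621 and had 65 and 48 reads in PV against 5 to 27 elsewhere. The intronic region of Gpd2, a mitochondrial glycerol-3-phosphate dehydrogenase, scored 1.28 and carried a ROR match, and its PV reads were 80 and 42, with 22 and 18 in SST and 2 and 5 in VIP. At the promoter of Zeb2, a transcription factor of migrating interneurons, the score of 1.97 came with 26 and 23 reads in PV, 11 and 14 in SST and 8 and 11 in VIP. None of the 1539 members overlapped the 287 elements that the study chose for its viral screen on SST signal, while 21 of the 826 SST-selective regions did. Those elements were chosen for SST signal, so their absence from a set chosen for PV signal is no finding.

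Sequence was searched in windows of 300 bases at the middle of each region, on both strands, for 20 motifs. ESRR, ROR and NR4A motifs share the letters AGGTCA, so their windows were counted jointly as well. ESRR factors are orphan nuclear receptors that act with PGC-1 coactivators on mitochondrial genes, and ROR factors are related receptors that bind as monomers. An ESRR match was found in 22 members (1.43%, exact binomial 95% interval 0.898 to 2.16), compared with 0.450% of all regions, 0.232% of VIP-selective and 0 of 826 SST-selective regions. A ROR match was found in 79 members (5.13%, 4.08 to 6.36), with 2.27% in all, 0.847% in SST-selective and 1.63% in VIP-selective regions. NR4A matches (AAAGGTCA) stood at 1.43% in members and 0.998% in all regions. At least 1 of the 3 was in 121 members (7.86%) and in 3.67% of all, 0.969% of SST-selective and 2.74% of VIP-selective regions. The selective sets thus differed in their direction from the reference, with members above and both other sets below it.

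Away from promoters the shares were close to these. Among regions more than 1 kb from a start, ESRR matches were in 1.5% of members and 0.473% of non-selective open regions, and ROR matches in 5.10% and 2.23%. ESRR and ROR matches occurred together in 2 members, and the 99 members with either were spread over the genome, with Gpd2 as the single nearest gene to have 2 of them. Their median ratio of PV to the highest other value, which the rule itself used, was 2.91, against 2.58 in the 1440 members with neither. The median lower PV value was 8.14 CPM in both groups. The median of the mean SST value was 1.94 against 2.2 CPM, and that of the mean VIP value 1.39 against 1.22. The difference in ratio was not tested. Of the members with either motif 10.1% were conserved, against 13.4% of those with neither. Windows of 200 and 500 bases kept members above all regions for both motifs, at 3.86 and 2.43 times for ESRR and 2.55 and 2.00 times for ROR.

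MEF2 sites, known from activity-dependent neuronal enhancers, were in 26 members (1.69%) against 0.648% of all regions, but also in 1.48% of the distal non-selective open regions. Members were thus further from the reference set than from other open distal chromatin. The same held for the E-box with the letters CAGCTG, a motif of basic helix-loop-helix factors, with 37.1% of members, 26.3% of all regions and 38.7% of distal open ones. This E-box was more frequent still in SST-selective (48.1%) and VIP-selective regions (53.3%). The MAF half-site was in 11.2% of members, 9.81% of SST-selective, 7.91% of VIP-selective and 7.27% of all regions. MAF is a transcription factor of medial eminence interneurons.

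The remaining motifs lay on either side of the reference. The CTCF core, bound by the insulator protein CTCF, was in 0.975% of members (exact binomial 95% interval 0.547 to 1.60) and 1.29% of all regions, and in 5.55% of the distal non-selective open regions. In windows of 200 bases it was in 0.195% of members and 0.981% of all regions. SP/KLF sites (GGGCGGG), typical of CpG-rich promoters, were in 2.53% of members and 5.50% of all regions. POU octamers (ATGCAAAT) were in 0.975% of members, 3.87% of SST-selective, 2.74% of VIP-selective and 1.83% of all regions. Median GC content was 51.3% in members, 51.0% over all regions and 60.3% in non-selective open regions, and repeats filled 7.79% and 16.9% of windows in members and in all regions. The repeat share was low in the other sets as well, at 7.29% in SST-selective, 6.47% in VIP-selective and 5.44% in non-selective open regions. The AP-1 motif (TGANTCA) was in 12.7% of members and in 21.9% of SST-selective, 14.3% of VIP-selective and 13.0% of all regions. The SOX motif (ACAATGG) was in 2.86% of members, 2.18% of SST-selective, 7.41% of VIP-selective and 3.73% of all regions. The NFI half-site (TTGGCA) was in 22.9% of members, 16.1% of SST-selective, 36.1% of VIP-selective and 20.7% of all regions. The other E-boxes (CAGATG, searched apart from CACGTG), CRE (TGACGTCA), the homeobox motif (TAATTA), the RFX half-site (GTTGCCA), EGR (GCGTGGGCG), ETS (CCGGAAG) and TEAD (GGAATGT) had between 0.363 and 1.29 times the share of all regions. In all, 10 of the 20 motifs had a larger share in members than in all regions. A match is a string of letters and not evidence of binding.

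**Figure D4:**
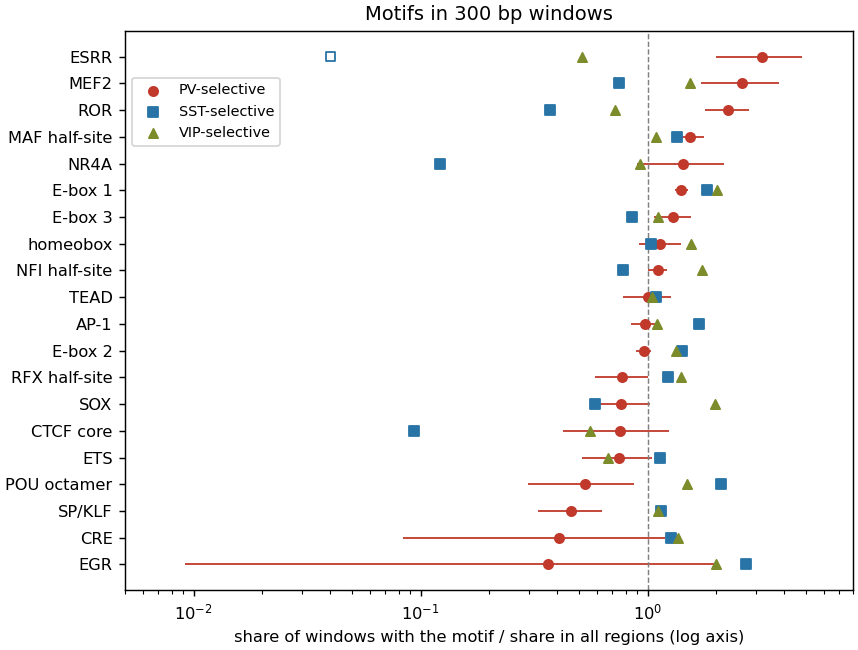
Share of 300-base windows with each of 20 motifs, divided by the share over all regions, for PV-selective, SST-selective and VIP-selective regions (log axis). Lines give the exact binomial 95% interval of the PV-selective share, and an open square at the left marks a share of 0. E-box 1 stands for CAGCTG, E-box 2 for CAGATG and E-box 3 for CACGTG. ESRR and ROR lie at 3.18 and 2.26 in PV-selective regions and below 1 in the other sets.

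The 1539 members had 1279 different genes as their nearest protein-coding start, 5.86% of 21840. Of these, 1066 genes had a single member, 179 had 2, 24 had 3, 7 had 4 and 3 had 5. The 3 genes with 5 members were Myc, Adgrl2 and Btbd11. Myc is a growth-related transcription factor gene. Its members summed to 106 and 91.6 CPM in PV, 22.6 and 23.9 in SST and 22.3 and 12.1 in VIP. All 5 members lay outside protein-coding genes, 16485 to 584550 bp away. Those of Adgrl2, an adhesion receptor for teneurins, summed to 66.1 and 57.2 in PV, 13.1 and 12.4 in SST and 3.97 and 5.81 in VIP. At Btbd11 they spanned 154 kb, with 64.1 and 50.5 in PV, 11.5 and 14.2 in SST and 7.45 and 7.60 in VIP.

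The genes with 4 members each were Syt2, Tenm3, Psd3, St6galnac3, Klhl29, Pex5l and Itpr1. Syt2 encodes synaptotagmin-2, the calcium sensor of fast release at PV synapses, and its members summed to 45.8 and 47.2 in PV, 11.0 and 11.1 in SST and 6.95 and 3.13 in VIP. Pex5l encodes an accessory subunit of HCN channels, and Itpr1 the receptor that releases calcium from stores. All 4 members of Itpr1 lay in introns, as did those of Psd3 and Klhl29. Genes differed in how many regions they could collect, as Adgrl2 was nearest to 389 reference regions and Syt2 to 47.

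Lists of genes by role were compared with members by nearest start, and with the background of 5.86% of all genes. Of 22 PV interneuron genes, 8 (36.4%) had a member, namely Pvalb, Syt2, Btbd11, Nek7, Ppargc1a, Pthlh, Kcns3 and Cort, and of 10 perineuronal net genes 5 had one. Of 19 fast-spiking and fast release genes there were 3, of 16 medial eminence regulators 3, and of 8 energy metabolism regulators 2. SST genes had a member at 5 of 16 (31.2%), namely Cbln4, Cort, Grik3, Reln and Tacr1, so that Cort was counted in both the PV and the SST list. VIP genes had one at 1 of 19 (Nr2f2), all GABAergic interneuron genes at 0 of 5, excitatory neuron genes at 0 of 12, and glial and vascular genes at 2 of 15 (Aqp4 and Sox10). SST-selective regions were nearest to none of the 22 PV genes, and VIP-selective regions to 8 of them, beside 3.42% and 13.8% of all genes. SST-selective and VIP-selective regions were nearest to 1 and 1 of the 10 net genes, 0 and 4 of the 19 fast-spiking genes, 2 and 8 of the 16 medial eminence regulators, and 1 and 3 of the 8 energy regulators. As genes collect different numbers of reference regions, shares of regions are given as well. The PV list took 1.04% of members and 0.395% of all regions, the net list 0.520% and 0.0922%, the fast-spiking list 0.260% and 0.142%, and the energy list 0.195% and 0.108%. The SST list took 0.325% of members and 0.215% of all regions, and the medial eminence list 0.325% and 0.33%, about equal shares. The lists were chosen with earlier results known, and these counts have no test.

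Members lay near 5 genes of the perineuronal net. Acan encodes aggrecan, the main proteoglycan of the net, and had an intronic member with 27 and 22 reads in PV, 8 and 7 in SST and 3 and 1 in VIP and one 537 bp from its start with 25 and 20, 9 and 12, and 10 and 8. Bcan encodes brevican, and its promoter region had 25 and 20 reads in PV, 4 and 9 in SST and 4 and 4 in VIP. For Hapln1, the link protein that ties proteoglycans to hyaluronan, the member lay 144861 bp away with 29 and 35 reads in PV, 3 and 14 in SST and 6 and 11 in VIP. Tnr, the cross-linker tenascin-R, had one with 26 and 20 reads in PV, 2 and 6 in SST and 1 and 2 in VIP. Has3, a hyaluronan synthase, had one with 57 and 39 in PV, 9 and 4 in SST and 15 and 14 in VIP. In all 6 of these regions both PV libraries lay above the other 4, as the rule requires.

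Among excitability and energy genes, Scn4b, the sodium channel subunit of resurgent current, had a member at its promoter with 32 and 37 reads in PV, 12 and 13 in SST and 8 and 5 in VIP. Cacna1a, the pore of P/Q-type calcium channels, had an intronic one with 40 and 30 in PV, 12 and 8 in SST and 12 and 8 in VIP. In the intron of Kcnc2, which encodes the Kv3.2 channel, 16 and 16 reads in PV stood against 2 and 8 in SST and 3 and 4 in VIP. The coactivator genes Ppargc1a and Ppargc1b, regulators of mitochondrial biogenesis, had 1 and 2 members, of which the highest lay in an intron of Ppargc1b with 47 and 37 reads in PV and 14 to 18 elsewhere. The Ppargc1a member lay 117337 bp from the start, with 16 and 13 reads in PV, 4 and 8 in SST and 1 and 2 in VIP. At the Etv1 promoter, a transcription factor gene of PV interneurons, PV had 75 and 67 reads, SST 33 and 35 and VIP 28 and 38.

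The Pvalb gene itself had 1 member, in an intron on chromosome 15 (78195158 to 78196165), 8575 bp from its start. Its reads were 22 and 41 in PV, 7 and 8 in SST and 3 and 2 in VIP. In CPM these were 11.2 and 22.8, 3.67 and 3.55, and 1.49 and 0.894. The ratio of 3.04 was part of how the region was chosen.

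Transcripts of nearby genes were a second readout that the rule had not used. Of 47348 barcodes, 32335 had more than 200 UMIs. Those with a UMI of Gad1 or Gad2, none of Slc17a7, and a UMI of exactly 1 of Pvalb, Sst and Vip gave 458 Pvalb+, 637 Sst+ and 332 Vip+ nuclei, with medians of 1257, 1021 and 762 UMIs, and the 6 genes of this gate were left out. The barcodes had 34958 distinct names, of which 9663 occurred in 2 or more of the 10 libraries, and no doublet caller was run. These nuclei form 1 sample, from 2 animals by the study's methods, and the values have no test. They come from injected V1, not from the whole uninjected cortex of the ATAC-Seq. Among 699 measured genes nearest to a member, the median log2 ratio of Pvalb+ nuclei to the mean of Sst+ and Vip+ nuclei, with 10 CPM added, was 0.090, and that of all 7999 genes with at least 30 UMIs was 0.047. The medians were thus close. More genes than in the background lay in the upper tail, as 63 of the 699 (9.01%) were above 1, against 3.36% of all genes, 2.86% of genes with a non-selective open region and no member, 2.81% of genes nearest to SST-selective and 4.62% of those nearest to VIP-selective regions. In library sets 1 and 2 the share was 9.96% and 11.4%, against 4.91% and 5.04% of all genes. The lower tail also held more, with 52 genes (7.44%) below -1 against 5.44% of all genes.

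For genes with several members the share above 1 was 16 of 136 (11.8%) with 2 or more and 6 of 28 (21.4%) with 3 or more. Below -1 were 10 of the 136 (7.35%) and 0 of the 28, against 5.44% of all genes. The smaller set is part of the larger one. For 120 genes nearest to a conserved member, 9 (7.50%) were above 1 and 18 (15.0%) below -1. Nearest genes need not be the targets of a distal region.

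Syt2 had the highest log2 ratio of the 699 genes, 4.40, with 364 UMIs or 588 CPM (UMIs of a class scaled to 1000000) in Pvalb+ nuclei (exact Poisson 95% interval 529 to 652), 16.0 in Sst+ and 20.4 in Vip+ nuclei. Btbd11 stood at 323, 64.2 and 112 CPM. The log2 ratio of Syt2 was 4.44 and 4.31 in the library sets. Free RNA can give UMIs in nuclei that do not express a gene, and in 5448 Slc17a7+ nuclei, a class of excitatory neurons, Syt2 had 17.1 and Btbd11 4.70 CPM. Of the net genes, Hapln1 had 141, 14.7 and 20.4 CPM and Bcan 229, 48.1 and 34.1. Tnr differed less, with 126, 72.2 and 61.3 CPM and a log2 ratio of 0.82. Acan fell below the minimum of 30 UMIs, with 15 in Pvalb+ and 1 each in Sst+ and Vip+ nuclei. Kcnc2 was at 1480, 797 and 256 CPM, and Scn4b had 74.3, 14.7 and 10.2. Ppargc1a had 352, 165 and 133, and the kinase gene Nek7 410, 162 and 20.4. Mypn, whose promoter was among the members of highest ratio, had 69.5, 9.36 and 3.41 CPM, and Itpr1 418, 199 and 174. In Slc17a7+ nuclei Itpr1 was at 458 CPM, above its level in Pvalb+ nuclei. Kcnc2 stood at 114 there, Tnr at 102, Ppargc1a at 88.2 and Scn4b at 46.0. Lower values in that class were 33.7 for Nek7, 20.2 for Bcan, 5.48 for Mypn and 4.07 for Hapln1.

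Many nearby genes did not follow their region, as 390 of the 699 (55.8%) had a log2 ratio above 0, against 54.0% of all genes. Pthlh, which encodes a peptide hormone, had 33.9 CPM in Pvalb+, 2.67 in Sst+ and 276 in Vip+ nuclei, although its member had 16 and 13 reads in PV, 1 and 7 in SST and 2 and 0 in VIP. Nrip1, a corepressor of nuclear receptors with the conserved ESRR region in its intron, had 43.6, 124 and 92.0 CPM. Zeb2 (98.5, 104 and 167) and Maf (367, 433 and 307) were not highest in Pvalb+ nuclei. Adgrl2 and Tenm3, with 5 and 4 members, had log2 ratios of 0.03 and 0.01. Myc had 8, 4 and 1 UMIs in the 3 classes, too few to compare. With the lowest log2 ratio of the 699, Nr2f2, a transcription factor of caudal eminence interneurons, stood at -3.24.

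**Figure D5:**
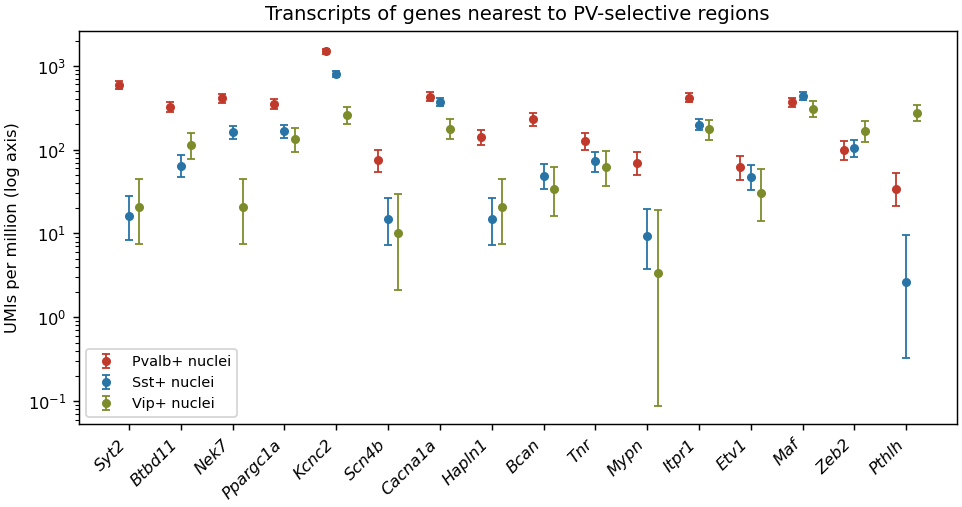
UMIs scaled to 1000000 (CPM, log axis) of 16 named genes nearest to a PV-selective region in Pvalb+, Sst+ and Vip+ nuclei of V1, with exact Poisson 95% intervals that cover counting of UMIs. Syt2, Btbd11, Hapln1 and Bcan are highest in Pvalb+ nuclei, while Pthlh is highest in Vip+ nuclei at 276 against 33.9.

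Among the lists, 14 of 19 measured PV interneuron genes and 14 of 19 fast-spiking genes had a log2 ratio above 1, which describes the Pvalb+ class, while 13 of 13 VIP genes and 9 of 10 SST genes were below -1. Net genes were above 1 at 3 of 6 and below -1 at 1. Medial eminence regulators were above 1 at 1 of 14 and below -1 at 2, and energy regulators above 1 at 2 of 6. Of the PV genes above 1, Syt2, Nek7, Ppargc1a and Btbd11 had a member, and the other 10, among them Tac1, Tmem132c and Esrrg, the receptor gene of the ESRR family, had none. The fast-spiking genes Kcnc2 and Scn4b had a member and a ratio above 1, and Kcnc1 and Nefh had the ratio without a member. The remaining genes nearest to members with the highest ratios were Adamts8 (3.05), Prss23 (2.94), Adamts15 (2.47), Adm (2.32) and Plch2 (2.16), named after their values were seen. Adamts8 and Adamts15 encode secreted metalloproteases of a family that cuts proteoglycans, and Adm the peptide adrenomedullin.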

How the data were processed

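The members and the gene lists were chosen with earlier results of these data known. ATAC-Seq was measured in 6 samples, 2 per cell type, and transcripts in 1 sample of V1 nuclei. The deposited count table holds reads per reference region that the authors trimmed with Trimmomatic 0.33, aligned to mm10 with Subread 1.4.6-p3 and counted with featureCounts. Reads in it are those on the reference regions and not the full depth. The authors' peak lists hold MACS2 peaks that HOMER also called, per replicate, with −log10 q-values, and any overlap of 1 base with a region was counted here. The phyloP score of each region was averaged by the authors. UMI counts of nuclei come from the authors' inDrops pipeline.

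Regions were placed with the GENCODE vM21 basic annotation of GRCm38 by their distance to the nearest protein-coding start. Exons, introns and intergenic sequence were set by protein-coding genes alone. Sequences were read from RefSeq's GRCm38 genome. For tests, all 6 samples entered 1 quasi-likelihood fit of edgeR 4.0.16 on counts that passed filterByExpr, with TMM factors. DESeq2 1.42.0 was an alternative, and the fit was checked on simulated data. With 1 animal per library, p-values rest on 2 animals per type. Regions were named by fixed rules (highest PV level, conserved, highest ratio, list genes, nearest to a limit), and exceptions are stated where they occur. Other values were computed in Python 3.11.15.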

Additional observations from a re-analysis of the deposited data

How the results depend on the processing

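With a floor of 3 or 10 CPM the rule chose 2888 and 468 regions, and with 1.5 or 3 times 2935 and 534. Leaving out single libraries gave 1667 to 3917. The share within 1 kb of a start was 3.43%, 7.26%, 7.97% and 3.18% under these 4 settings, and 4.36% to 17.9% without single libraries, the highest without SST replicate 1. The phyloP share was 15.2% with the floor of 10. The median distance was 18463 bp to starts of every annotated gene (17955 bp over all regions). Regions higher and lower in PV numbered 725 and 493 without the filter, 2494 and 1814 in DESeq2, and 2599 to 9965 and 1573 to 8361 without single libraries. Members called higher in PV were 501 without the filter, 990 in DESeq2 and 828 to 1513 without single libraries, the lowest without PV replicate 1. Members higher in SST were 18 and 50 under the first 2 of these and 67 to 189 without single libraries, the lowest without VIP replicate 2. Members higher in VIP were 2 and 2, and 2 to 9. Where a type was left with 1 library, that library was assumed to vary like the other groups. The cause was not tested, except that the test without the filter was adjusted over 310118 regions. The median log2 fold change of SST over VIP in members stayed positive under all 10 alternatives, at 0.72 to 0.82 without single libraries.

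The replicate block gave 6730 and 4338 regions higher and lower in PV, and 1524 members higher in PV. It gave 193 members higher in SST and 5 higher in VIP, beside 6697 and 7367 of 40338 regions. Deviations of same-numbered libraries correlated at 0.0225, -0.0371 and 0.0287, so the numbers do not pair the samples. Depth limits single regions, since members near the floor rest on 10 reads per PV library. The ESRR and ROR excess kept its direction in windows of 200 and 500 bases, and the CTCF core ratio moved from 0.756 to 0.199 in 200 bases.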

Other observations

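The authors' table of peak marks and their peak lists differed for 1 library. Of the 1539 members, 581 were marked as a peak of VIP replicate 1 while 331 overlapped a peak of its list. In the other 5 libraries the numbers were 1470 and 1447 for PV replicate 1, 1403 and 1411 for PV replicate 2, 489 and 501 for SST replicate 1, 677 and 686 for SST replicate 2, and 401 and 402 for VIP replicate 2. The peak shares above rest on the lists.

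Among genes nearest to a conserved member, 18 of 120 (15.0%) had a log2 ratio below -1 in Pvalb+ nuclei, against 7.44% of the genes nearest to any member and 5.44% of all measured genes. Genes nearest to SST-selective and VIP-selective regions had 11.5% and 12.9%. In library sets 1 and 2 the share for conserved members was 12.4% and 10.5%, against 8.79% and 7.91% for any member, 7.15% and 6.04% of all genes, 17.1% and 12.0% for SST-selective and 15.4% and 13.6% for VIP-selective regions. These values have no test.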
